A study of Mus musculus with 21 samples.

Results

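The expression of the genes of oxidative phosphorylation (OXPHOS) was examined in pancreatic islets. The islets came from mice fed a regular diet (RD), a diet high in fat (HFD) or the latter with the compound O304 mixed in (HFD-O304). The OXPHOS genes were the protein-coding genes with symbols beginning with Ndufa, Ndufb, Ndufc, Ndufs, Ndufv, Uqcr, Cox4, Cox5, Cox6, Cox7, Cox8, Atp5, mt-Nd, mt-Co, mt-Cytb or mt-Atp, together with Sdha, Sdhb, Sdhc and Sdhd, that held at least 210 read pairs summed over all libraries. Of the 55536 genes in the files, 98 had such a symbol and reached the minimum, 88 encoded in the nucleus and 10 in mitochondrial DNA, and 9 more had the symbol but fell short. The nuclear genes comprised 44 of complex I (7 core subunits, 29 accessory subunits and 8 assembly factors), 4 of complex II, 8 of complex III, 15 of complex IV and 17 of complex V. The mitochondrial genes comprised 5 of complex I, 1 of complex III, 3 of complex IV and 1 of complex V.

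Each group held 7 samples from male CBA mice, a sample being RNA of 150 islets picked from a pool of 5 animals. RD mice ate regular diet throughout, HFD mice ate the fat-rich diet from 10 weeks of age, and HFD-O304 mice ate that diet with 0.8 mg O304 per g. The diets lasted 9 weeks by the study's methods and 10 weeks by its results text, and islets were taken from 20-week-old animals. O304 is a small molecule that activates AMPK, the kinase that senses cellular energy, and it reached the whole animal, so that direct effects on islets and effects through other tissues cannot be told apart. No animal carried an engineered allele by the labels.

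Libraries held 13809266 to 48922569 read pairs on genes, and HFD-O304 replicate 2 was the shallowest. The genes Ins1 and Ins2 took 24.03 to 29.6% of these pairs, which marks the samples as islets. The medians were 27.5% in RD, 25.9% in HFD-O304 and 28.6% in HFD islets. HFD-O304 replicate 1 carries HFD as its diet tag but was grouped by its title, and 10 OXPHOS genes passed the test between HFD-O304 and HFD islets with or without it. Replicates 1 to 4 and 5 to 7 come from separate runs of library numbers, and values within each set stand beside the main results. An islet is a mixture of cell types, and in such bulk samples fewer cells of a type and less RNA per cell cannot be told apart. The groups differed in this mixture. The summed level of 4 alpha cell markers (Gcg among them) was 21897 to 27744 CPM (read pairs scaled to a common library total) in RD, 22590 to 30829 in HFD-O304 and 8354 to 16900 in HFD islets. That of 4 proliferation markers (Mki67, Top2a, Ccna2 and Cdk1) was 14.01 to 23.0 CPM in RD, 7.47 to 17.01 in HFD-O304 and 16.3 to 92.5 in HFD islets. That of 3 delta cell markers (Sst, Hhex and Rbp4) was 2362 to 3825 CPM in RD, 2330 to 4457 in HFD-O304 and 1305 to 2883 in HFD islets. That of 8 beta cell markers, Ins1 and Ins2 among them, was 276910 to 337373 CPM in RD islets. It was 258869 to 306879 CPM in HFD-O304 and 316283 to 374890 CPM in HFD islets. Of these 8, 2 were called higher and 3 lower in HFD-O304 than in HFD islets. All markers of these lists were detected. Acinar markers, of the exocrine tissue around islets, ranged from 11.9 to 8182 CPM between samples, with no marker called in any comparison.

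Electrons from nutrients enter the respiratory chain through complex I or II, pass through ubiquinone to complex III and through cytochrome c to complex IV, and end on oxygen. Complexes I, III and IV pump protons across the inner membrane, and complex V, the ATP synthase, uses the resulting gradient to make ATP. Mitochondrial DNA encodes subunits of every complex except complex II, which is wholly nuclear, and in beta cells the ATP made from glucose closes potassium channels and so triggers insulin release.

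The sequences below are shown because the mitochondrial genes with the fewest counted reads lie in a stretch that is bounded by copies in the nuclear genome. In GRCm38, mt-Co2, mt-Co3 and parts of mt-Co1 and mt-Nd4, between bases 6381 and 11042 of the mitochondrial genome, match annotated pseudogenes on the minus strand of chromosome 1 (chr1:24611535-24616197), in the same order and spacing to within 1 base. The aligner's gene counts leave out read pairs that fit several places. The gene mt-Co2 was identical to the pseudogene Gm28661 over 681 of 681 aligned bases, as in this window at chrM:7313-7372 and its match at chr1:24615206-24615265 (minus strand).
mt-Co2: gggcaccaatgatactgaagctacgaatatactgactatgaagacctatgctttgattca
Gm28661: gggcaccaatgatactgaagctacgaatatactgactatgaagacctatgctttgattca
The copy ends inside mt-Nd4, and the capitals in the window at chrM:11013-11072 mark the bases that belong to it.
mt-Nd4: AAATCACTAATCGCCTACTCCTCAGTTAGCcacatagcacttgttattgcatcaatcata
The gene mt-Cytb lies wholly outside the copy, and its window at chrM:14445-14504 is shown for contrast.
mt-Cytb: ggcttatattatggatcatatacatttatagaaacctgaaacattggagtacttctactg

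The 6 genes wholly inside these bounds (mt-Co2, mt-Atp8, mt-Atp6, mt-Co3, mt-Nd3 and mt-Nd4l) held 33 to 1269 read pairs each over the 21 libraries and 3365 together. The other 7 held 5628 to 5608240 each and 15475500 together. Of 5 of them at least 97.99% of the 50-base windows were found in a chromosome 1 pseudogene, but none of the 155 windows of mt-Atp8 was found in another annotated gene, so a copy of mt-Atp8 was not shown. Of the windows of mt-Nd4 62.2%, of mt-Co1 51.1%, of mt-Nd2 8.19% and of mt-Nd5 7.61% were found in annotated pseudogenes. The gene mt-Nd4 has 63.6% and mt-Co1 31.8% of its length inside the stretch. All 3 mitochondrial genes under the minimum of 210 were inside it: mt-Atp8 with 33 pairs, mt-Nd3 with 187 and mt-Nd4l with 193. Just above the minimum were mt-Co2 with 715, mt-Co3 with 968 and mt-Atp6 with 1269. The counts of these 6 genes cover only pairs that the aligner placed in 1 position, and are not read here as levels of their transcripts. The nuclear genes under the minimum were the tissue-restricted isoforms Cox6b2 (207 pairs), Cox7a1 (175), Cox7b2 (38), Cox8b (15) and Cox8c (1), and a second annotated Atp5o gene (0).

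**Figure D1:**
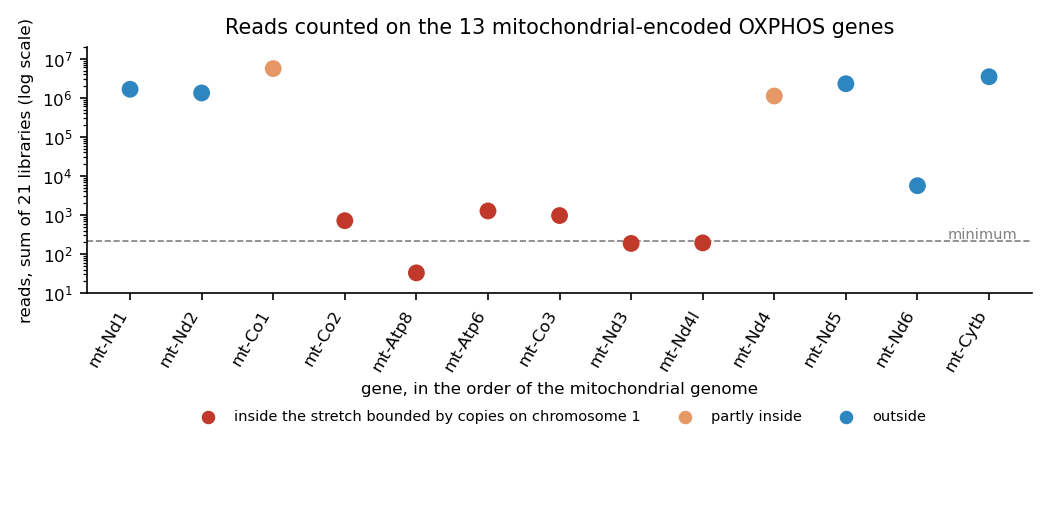
Read pairs summed over the 21 libraries (log axis) for the 13 protein-coding genes of mitochondrial DNA, coloured by whether the gene lies inside, partly inside or outside the stretch bounded by copies on chromosome 1. The dashed line marks the minimum of 210, and the 6 genes inside the stretch sit between 33 and 1269.

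Levels are compared between genes as CPM per kilobase of exon. The median of the 88 nuclear OXPHOS genes was 26.8 CPM per kilobase, against 2.97 over the 17215 genes with at least 210 pairs. Among mitochondrial genes mt-Co1 reached 4593, mt-Cytb 3829 and mt-Nd1 2186 CPM per kilobase. The value of mt-Co1 leaves out pairs that fit several places, while no window of mt-Cytb or mt-Nd1 was shared with another gene. Among the nuclear genes of complex I, Ndufa1 had 165 and Ndufb11 99.5 CPM per kilobase. In the other complexes the highest nuclear levels per kilobase were those of Sdhd (78.8), Uqcr10 (79.6), Cox8a (154) and Atp5b (141).

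The first question was whether HFD changed OXPHOS expression in islets. Between HFD and RD islets, 3 of the 98 genes passed the test at an adjusted p under 0.01 (edgeR quasi-likelihood test, Benjamini-Hochberg adjustment over all genes tested), beside 3.54% of all 27229 genes tested and 5.52% of the 17215 genes with at least 210 pairs. The share of OXPHOS genes called was thus no larger than that of genes at large. Ndufa1 and Ndufa4l2 rose, beside 2% of all genes and 3.1% of those with at least 210 pairs called higher, and mt-Nd5 fell, beside 1.54% and 2.42% called lower. Nuclear and mitochondrial genes leaned opposite ways. The median log2 fold change was 0.10 over the 88 nuclear genes, of which 75 were positive, and -0.22 over the 10 mitochondrial genes, which were all negative, against -0.004 over all genes tested. Those 10 include mt-Co2, mt-Co3 and mt-Atp6, whose counts are not read as levels. Over the 6 mitochondrial genes with a mean of at least 1000 normalised counts the median was -0.18, and all were negative. At an unadjusted p under 0.05 there were 27 nuclear and 5 mitochondrial genes, beside 21% of all genes and 29% of those with at least 210 pairs, a minimum that every OXPHOS gene counted here reached. At an adjusted p under 0.05 there were 8 genes, beside 7.89% and 12%, and DESeq2 called the same 3, beside 6.46% and 10.2%.

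The second question was whether HFD-O304 islets stood nearer to RD islets. Between HFD-O304 and RD islets 2 of the 98 genes passed, both lower and Cox4i2 among them, beside 1.31% of all genes, 2.05% of those with at least 210 pairs, and 0.903% and 1.42% called lower. The median log2 fold change was 0.01 over the nuclear genes, with 47 of 88 positive, 0.17 over the mitochondrial genes, with 10 of 10 positive, and 0.01 over all genes. Over the 6 mitochondrial genes with a mean of at least 1000 normalised counts it was 0.15, and all were positive. None of the 10 mitochondrial genes passed with edgeR or DESeq2, while 5 had an unadjusted p under 0.05. Of all 98 genes 11 were under that value, beside 14.4% of all genes and 18.7% of those with at least 210 pairs. At an adjusted p under 0.05 there were 3, beside 2.88% and 4.41%, and DESeq2 called the same 2, beside 2.67% and 4.2%.

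Between HFD-O304 and HFD islets 10 of the 98 genes passed, beside 11.9% of all genes and 18.3% of those with at least 210 pairs, so that the number called was again no larger than among genes at large. With scaling factors between libraries, as used here, the calls were divided by genome. The 5 that were higher in HFD-O304 islets were all mitochondrial (mt-Nd2, mt-Nd4, mt-Nd5, mt-Cytb and mt-Co1), beside 5.08% of all genes and 7.85% of those with at least 210 pairs called higher, and the 5 that were lower were all nuclear (among them Ndufa1, Ndufa4l2, Cox4i2 and Atp5o), beside 6.79% and 10.4% called lower. The median log2 fold change was 0.41 over the mitochondrial genes and -0.09 over the nuclear genes, of which 71 of 88 were negative, against 0.03 over all genes. Over the 6 mitochondrial genes with a mean of at least 1000 normalised counts it was 0.34, and all were positive. With library totals alone as the scale this division did not hold, and nuclear genes were also among those called higher. The median of all genes then moved to 0.13, and that of the nuclear genes moved to 0.01. Relative to all genes the nuclear median was then -0.11, and -0.12 with the scaling factors. The HFD samples enter this comparison and that with RD, so that opposite signs in the 2 comparisons are not independent. At an unadjusted p under 0.05 there were 34 nuclear and 10 mitochondrial genes, beside 29.3% of all genes and 40.6% of those with at least 210 pairs. At an adjusted p under 0.05 there were 23 (23.5%), beside 18.9% and 28%, a larger share than of all genes and a smaller one than of those with at least 210 pairs. DESeq2 called 13, beside 14.9% and 23%, adding Ndufa8, Uqcr10 and mt-Co2.

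**Figure D2:**
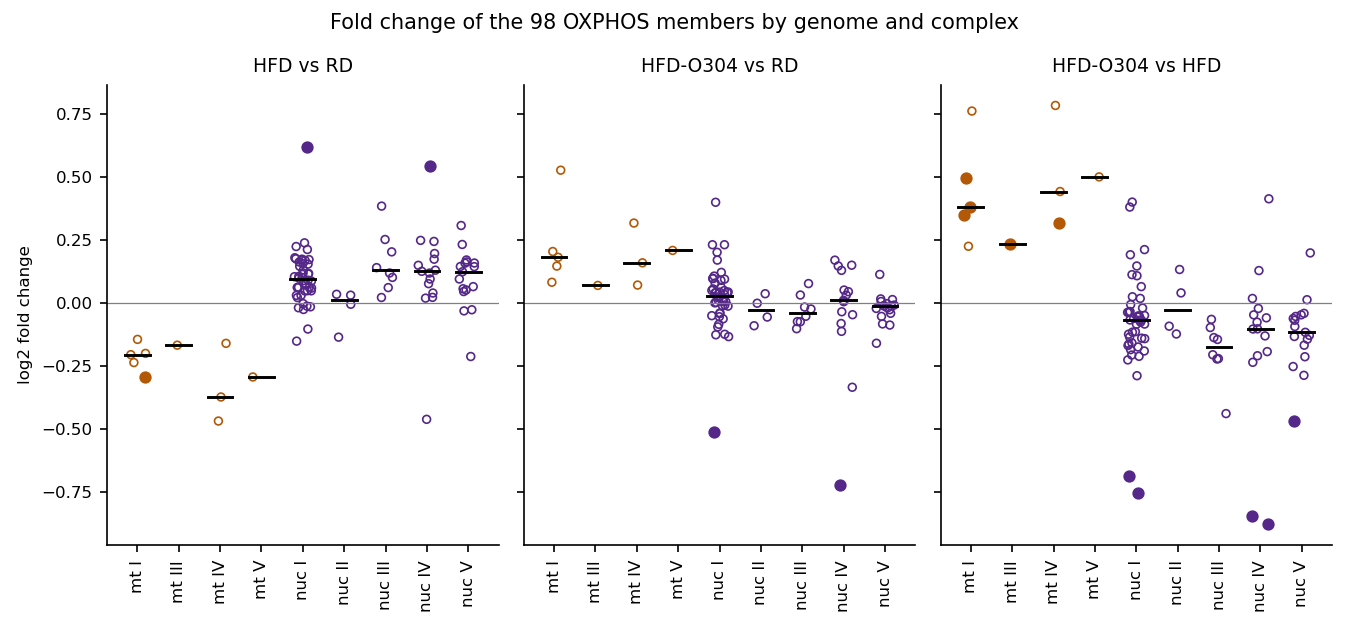
Log2 fold changes of the 98 OXPHOS genes (points) in the 3 comparisons, by genome of origin and complex, with filled points for genes at an adjusted p under 0.01 and lines at the medians. Mitochondrial genes lie below 0 in HFD vs RD and above 0 in both other comparisons, and nuclear genes centre at 0.10, 0.01 and -0.09 (0.01 for the last with library totals alone as the scale).

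Among the mitochondrial genes, mt-Nd5 encodes a proton-pumping core subunit of complex I. Its normalised read counts were 100118, 106087 and 109564 (lowest, median and highest) in RD, 76414, 86414 and 102759 in HFD, and 107288, 122111 and 134057 in HFD-O304 islets. All HFD-O304 samples lay above all HFD samples, which 2.56% of all genes and 3.94% of those with at least 210 pairs did. RD and HFD overlapped through HFD replicate 1, the highest HFD sample. It fell by 0.29 on the log2 scale (SE 0.055, adjusted p = 0.00133) in HFD against RD islets, and was 0.50 higher (SE 0.056, adjusted p = 3.01e-07) in HFD-O304 than in HFD islets. Against RD, the HFD-O304 value was 0.21 higher on the log2 scale (SE 0.055, adjusted p = 0.0377) and did not pass.

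The other proton-pumping core subunits of complex I that were well counted followed the same order of medians. For mt-Nd2 the counts were 57099, 61877 and 64828 in RD, 44301, 54597 and 64519 in HFD, and 55328, 72221 and 76467 in HFD-O304 islets. For mt-Nd4 they were 46945, 51733 and 53382 in RD, 39517, 43626 and 52390 in HFD, and 48819, 56055 and 62717 in HFD-O304 islets. All groups overlapped for both genes. The difference between HFD-O304 and HFD was 0.38 for mt-Nd2 (SE 0.069, adjusted p = 0.000166) and 0.35 for mt-Nd4 (SE 0.058, adjusted p = 5.85e-05) on the log2 scale. For mt-Nd1, with medians of 77405 in RD, 82195 in HFD-O304 and 70836 in HFD, that difference was 0.23 (SE 0.072) and did not pass (adjusted p = 0.0256).

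The gene mt-Cytb, which encodes the cytochrome b core of complex III, had counts of 155850, 162070 and 172330 in RD, 130419, 139182 and 174278 in HFD, and 153991, 174726 and 179782 in HFD-O304 islets. The gene mt-Co1, which encodes the subunit of complex IV where oxygen is reduced, had 247527, 255344 and 270307 in RD, 211035, 223292 and 271793 in HFD, and 257644, 293003 and 311585 in HFD-O304 islets. For both genes the highest HFD sample exceeded the highest RD sample, so the groups overlapped although the medians differed. In HFD-O304 against HFD islets mt-Cytb was 0.24 higher (SE 0.055, adjusted p = 0.0023) and mt-Co1 0.32 higher (SE 0.053, adjusted p = 6.62e-05) on the log2 scale. In the fit of these 2 groups alone mt-Cytb did not pass (adjusted p = 0.0123).

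The remaining mitochondrial genes had few reads. The gene mt-Nd6, encoded on the other strand, had median counts of 231 in RD, 263 in HFD-O304 and 212 in HFD islets, with a highest value of 909 in HFD-O304 replicate 2. Inside the stretch bounded by copies the medians in RD, HFD-O304 and HFD islets, in that order, were 32.0, 40.6 and 18.9 for mt-Co2, 45.9, 48.5 and 36.5 for mt-Co3, and 55.4, 68.6 and 50.05 for mt-Atp6. None of the 4 passed in any comparison with edgeR. DESeq2 called mt-Co2 higher in HFD-O304 than in HFD islets.

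As a share of all read pairs on genes, the 13 mitochondrial genes held 1.78, 1.96 and 2.09% (lowest, median and highest) in RD, 1.41, 1.68 and 1.92% in HFD, and 1.92, 2.29 and 2.47% in HFD-O304 islets. The 88 nuclear genes held 0.502, 0.551 and 0.578% in RD, 0.536, 0.562 and 0.627% in HFD, and 0.542, 0.556 and 0.562% in HFD-O304 islets. Pairs that fit several places are left out of both shares, and the 6 genes inside the stretch bounded by copies held only 3365 of the mitochondrial pairs. The pairs left out were a median of 8.06% of all read pairs in RD, 8.52% in HFD-O304 and 7.81% in HFD islets. Their part in the shares was not tested. The ratio of the shares had medians of 3.57 in RD, 4.10 in HFD-O304 and 3.06 in HFD islets. The highest ratio of an HFD sample was 3.17 and the lowest of an HFD-O304 sample 3.52, so these groups did not overlap, while RD samples, at 3.12 to 4.10, overlapped both. The HFD group was also the group with low alpha and delta cell markers (3 of 4 alpha markers lower than in RD and 1 higher, and 2 of 3 delta markers lower) and high proliferation markers (4 of 4 higher), and the part of these cells in the mitochondrial result was not tested.

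**Figure D3:**
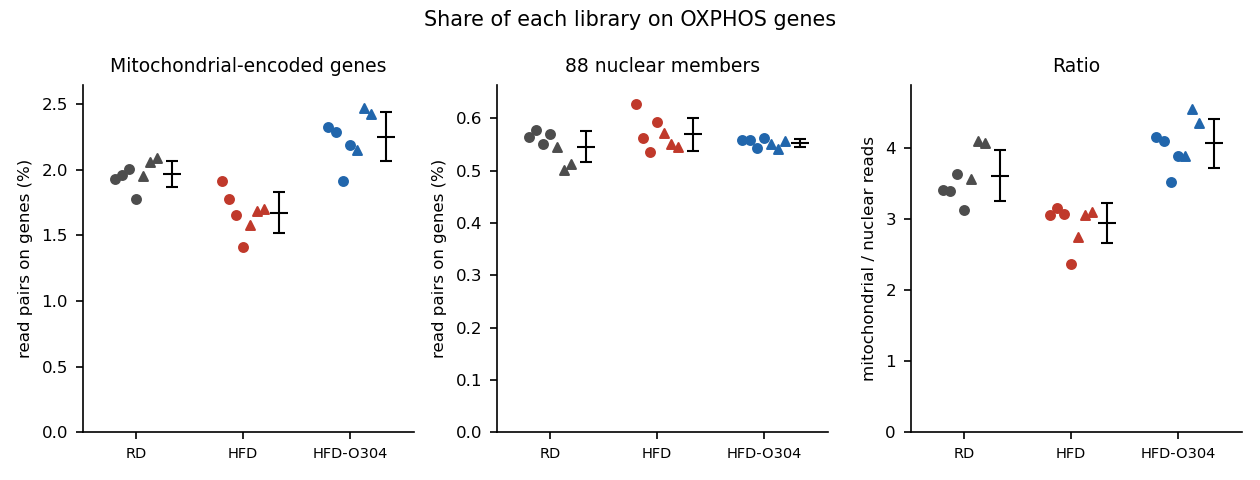
Share of read pairs on the 13 mitochondrial genes (left, %), on the 88 nuclear OXPHOS genes (middle, %) and their ratio (right) in each sample of the 3 groups, with circles for replicates 1 to 4, triangles for replicates 5 to 7 and bars for mean ± SD. The mitochondrial share was 1.97 ± 0.101% in RD, 2.25 ± 0.187% in HFD-O304 and 1.67 ± 0.159% in HFD samples (SD, n = 7).

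The mean log2 level of the 6 mitochondrial genes with a mean of at least 1000 normalised counts (mt-Nd1, mt-Nd2, mt-Nd4, mt-Nd5, mt-Cytb and mt-Co1), relative to all RD samples, was -0.16 in HFD replicates 1 to 4 and -0.23 in HFD replicates 5 to 7. It was 0.10 and 0.19 in the HFD-O304 sets, and -0.02 and 0.02 in the RD sets. The same measure over the nuclear OXPHOS genes was 0.14 and 0.07 in the HFD sets and 0.04 and -0.04 in the HFD-O304 sets. In the RD sets it was 0.07 and -0.10, so the nuclear level of RD samples differed between the sets. The nuclear levels of HFD samples, -0.02 to 0.27, overlapped those of RD samples, -0.14 to 0.11. For mt-Nd5 the difference between HFD-O304 and HFD was 0.40 (adjusted p = 0.00132) within replicates 1 to 4 and 0.62 (adjusted p = 3.6e-06) within replicates 5 to 7. The other 4 mitochondrial calls of that comparison passed within replicates 5 to 7 and not within replicates 1 to 4, where mt-Nd2 had a log2 value of 0.33 (adjusted p = 0.0378), mt-Nd4 0.25 (adjusted p = 0.0538), mt-Co1 0.26 (adjusted p = 0.025) and mt-Cytb 0.15 (adjusted p = 0.223, against 0.34 in replicates 5 to 7). The fall of mt-Nd5 in HFD against RD did not pass within replicates 1 to 4 (-0.25, adjusted p = 0.068) and passed within replicates 5 to 7 (-0.35, adjusted p = 0.00403). A test of the difference between the sets was the interaction of group and library set. With edgeR it passed for 0 of the 98 genes, and for 0 of all 27229 genes, in each comparison, so it does not set the OXPHOS genes apart. Of the 98, 8, 10 and 2 had an unadjusted p under 0.05 in HFD vs RD, HFD-O304 vs RD and HFD-O304 vs HFD, beside 6.84, 5.57 and 4.83% of all genes and 8.14, 6.02 and 4.88% of those with at least 210 pairs.

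Across samples, with group means removed, pairs of the 6 well-counted mitochondrial genes had a median Pearson correlation of 0.846 (15 pairs). Pairs of nuclear genes had a median of 0.344 (3828 pairs), and mitochondrial with nuclear pairs -0.027 (528 pairs). These values describe 21 samples whose genes share a library and its depth.

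The counts by complex below stand beside these shares of genes with at least 210 pairs, in HFD vs RD, HFD-O304 vs RD and HFD-O304 vs HFD. With edgeR they were 5.52, 2.05 and 18.3% at an adjusted p under 0.01, and 29, 18.7 and 40.6% at an unadjusted p under 0.05. With DESeq2 they were 10.2, 4.2 and 23% at an adjusted p under 0.01. Complex I takes electrons from NADH, and 44 of the 88 nuclear OXPHOS genes belong to it. Of its 44 nuclear genes, 1 rose in HFD against RD, Ndufa1. Ndufa1 (chrX:37187588-37191163) encodes a small accessory subunit needed for complex I assembly. Its counts were 1689, 2158 and 2590 in RD, 2150, 3590 and 4627 in HFD, and 1709, 1928 and 2382 in HFD-O304 islets. HFD samples reached far above the other groups but their lowest sample lay within both. Ndufa1 rose by 0.62 on the log2 scale in HFD against RD (SE 0.129, adjusted p = 0.00285) and was lower by 0.75 in HFD-O304 against HFD (log2 fold change -0.75, SE 0.130, adjusted p = 0.000101). Replicates 1 to 4 alone gave a rise of 0.71 and replicates 5 to 7 alone a value of 0.45 that did not pass (adjusted p = 0.0156), nor did the rise in the fit of these 2 groups alone (adjusted p = 0.0116).

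The accessory subunits, Ndufa1 included, leaned upward in HFD islets, where the median log2 value was 0.12 and 26 of 29 were positive, and the 7 nuclear core subunits had a median of 0.09. Ndufa8, an intermembrane-space subunit, had a log2 value of 0.21 (adjusted p = 0.0342) in HFD against RD and -0.22 (adjusted p = 0.0122) in HFD-O304 against HFD, and Ndufc2 0.24 (adjusted p = 0.0346) and -0.19 (adjusted p = 0.066). The 8 assembly factors, which build complex I but are not part of it, had a median of 0.06 in HFD against RD and 0.07 in HFD-O304 against RD, where 8 of 8 were positive. Ndufaf3 was 0.20 higher (adjusted p = 0.142) and Ndufa6, an accessory subunit, 0.17 higher (adjusted p = 0.299) in HFD-O304 than in RD islets, and neither passed.

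Complex II, succinate dehydrogenase, also belongs to the citric acid cycle. None of its 4 genes passed in any comparison with edgeR or DESeq2, with 1, 0 and 1 at an unadjusted p under 0.05. Sdha, the flavoprotein that oxidises succinate, had counts of 8320, 8604 and 9983 in RD, 7713, 8040 and 8357 in HFD, and 8162, 8504 and 9655 in HFD-O304 islets. HFD samples lay at the low end and overlapped both other groups. The log2 values were -0.13 in HFD against RD (SE 0.051, adjusted p = 0.111) and 0.13 in HFD-O304 against HFD (SE 0.051, adjusted p = 0.0655). The log2 values of Sdhb, the iron-sulfur subunit, and of the membrane anchors Sdhc and Sdhd were -0.12 to 0.04 over the 3 comparisons.

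Complex III passes electrons from ubiquinol to cytochrome c. None of its 8 nuclear genes passed with edgeR in any comparison, with 3 at an unadjusted p under 0.05 in HFD against RD, 0 in HFD-O304 against RD and 5 in HFD-O304 against HFD. DESeq2 called Uqcr10 lower in HFD-O304 than in HFD islets and no other. All 8 had positive log2 values in HFD against RD (median 0.13) and negative values in HFD-O304 against HFD (median -0.17).

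Complex IV, cytochrome c oxidase, passes electrons to oxygen, and several of its nuclear subunits exist as isoforms. Of its 15 nuclear genes 1 rose in HFD against RD, 1 was lower in HFD-O304 than in RD and 2 were lower in HFD-O304 than in HFD islets. Cox4i2 (chr2:152754173-152765037), the oxygen-responsive isoform of the regulatory subunit, had counts of 82.2, 108.7 and 126 in RD, 99.95, 123 and 136 in HFD, and 54.9, 60.9 and 77.7 in HFD-O304 islets. All HFD-O304 samples lay below all samples of both other groups, which 0.87% of all genes did against RD and 3.61% against HFD. Of genes with at least 210 pairs 1.37% and 5.61% did. The log2 fold change was -0.72 against RD (SE 0.121, adjusted p = 0.000572) and -0.84 against HFD (SE 0.121, adjusted p = 9.63e-06). The call against RD was lost within replicates 1 to 4 (-0.78, adjusted p = 0.0597) and within replicates 5 to 7 (-0.67, adjusted p = 0.0365).

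The main isoform Cox4i1 did not pass in any comparison. Cox4i2 made up 3.51, 4.69 and 5.24% of the summed Cox4 level per kilobase in RD, 3.87, 4.51 and 5.03% in HFD, and 2.21, 2.53 and 3.08% in HFD-O304 islets, which lay below both other groups. Mesenchymal markers were also lower in HFD-O304 than in HFD islets. The summed level of 7 such markers, all detected, was 58.6 to 98.4 CPM in RD, 38.0 to 101.3 in HFD-O304 and 63.6 to 176 in HFD islets, 4 of 7 were lower in HFD-O304 than in HFD and 1 of 7 lower than in RD, where the sums overlapped, and their part in the Cox4i2 result was not tested.

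Ndufa4l2 (chr10:127514967-127517154) is a paralogue of the complex IV subunit Ndufa4 and is known to be induced in hypoxia. Its counts were 269, 273 and 355 in RD, 290, 432 and 577 in HFD, and 158, 236 and 291 in HFD-O304 islets. The lowest HFD sample fell just under the highest HFD-O304 sample, and HFD overlapped RD. The log2 fold change was 0.54 in HFD against RD (SE 0.132, adjusted p = 0.00983) and -0.88 in HFD-O304 against HFD (SE 0.134, adjusted p = 2.21e-05). The rise in HFD was lost in each library set alone (0.45, adjusted p = 0.245, within replicates 1 to 4, and 0.67, adjusted p = 0.0111, within replicates 5 to 7) and without any 1 of 15 of the 21 libraries, with the highest adjusted p, 0.0363, and the lowest log2 value, 0.45, without HFD replicate 4. Ndufa4 itself had values of 0.25 (adjusted p = 0.0687) and -0.23 (adjusted p = 0.0495). Ndufa4l2 made up a median of 10.7% of the summed level per kilobase of the 2 genes in RD, 8.37% in HFD-O304 and 13.4% in HFD islets. The mesenchymal markers had median log2 values of 0.91 in HFD against RD and -0.90 in HFD-O304 against HFD. Of the 7, 1 was called higher in the first comparison and 4 lower in the second. Their part in the Ndufa4l2 result was not tested.

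Cox6a2, the isoform typical of heart and skeletal muscle, was well expressed in islets. Its counts were 1050, 1433 and 2176 in RD, 652, 1260 and 1306 in HFD, and 1119, 1477 and 1960 in HFD-O304 islets. HFD samples lay low, with overlap, and neither difference passed (-0.46, SE 0.155, adjusted p = 0.0664 against RD; 0.42, SE 0.155, adjusted p = 0.0612 for HFD-O304 against HFD). The values lay further from 0 within replicates 1 to 4 (-0.71, adjusted p = 0.0742, and 0.67, adjusted p = 0.0514) than within replicates 5 to 7 (-0.14, adjusted p = 0.407, and 0.08, adjusted p = 0.665), and the test of the difference between the sets did not pass (edgeR adjusted p = 0.739 and 0.99988). That test passed for 0 of all 27229 genes. The Cox6a2 share of the summed Cox6a level per kilobase was 31.7, 38.8 and 42.8% in RD, 19.7, 30.8 and 32.6% in HFD, and 31.4, 35.3 and 40.1% in HFD-O304 islets. In the other families the main form kept its place. Cox6b1 held at least 99.5% and Cox8a at least 99.88% of its family in every sample. Of the Cox7a family, Cox7a2 held group medians of 58.0 to 61.4% and the supercomplex factor Cox7a2l 38.4 to 41.6%.

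Complex V makes ATP. Of its 17 nuclear genes, none passed in HFD against RD with edgeR or DESeq2 (6 at an unadjusted p under 0.05) or in HFD-O304 against RD (0), and 1 was lower in HFD-O304 than in HFD islets. This was Atp5o (chr16:91925214-91931687), the subunit that joins the catalytic head to the peripheral stalk. Its counts were 722, 827 and 1020 in RD, 856, 939 and 1334 in HFD, and 672, 757 and 927 in HFD-O304 islets. The lowest HFD samples overlapped both other groups. The log2 values were 0.31 in HFD against RD (SE 0.098, adjusted p = 0.0493), which did not pass, and -0.47 in HFD-O304 against HFD (SE 0.098, adjusted p = 0.000914), which did not pass within replicates 1 to 4 (-0.47, adjusted p = 0.0197). In the annotation 41.6% of the windows of Atp5o are shared with other genes, among them the antisense gene Gm15976, and the counts used here were those of 1 strand.

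The catalytic subunit Atp5b had median counts of 21818 in RD, 20884 in HFD-O304 and 21691 in HFD islets, with log2 values of -0.09 to 0.07 over the comparisons and no call. Atp5s, a coupling factor, went against most of the nuclear genes, with log2 values of -0.21 in HFD against RD (SE 0.065, adjusted p = 0.0413) and 0.20 in HFD-O304 against HFD (SE 0.065, adjusted p = 0.0286). The genes Atp5g1, Atp5g2 and Atp5g3 encode the same mature ring subunit. Their shares of the summed level per kilobase had group medians of 21.4 to 22.3%, 15.1 to 16.4% and 61.2 to 62.7%.

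**Figure D4:**
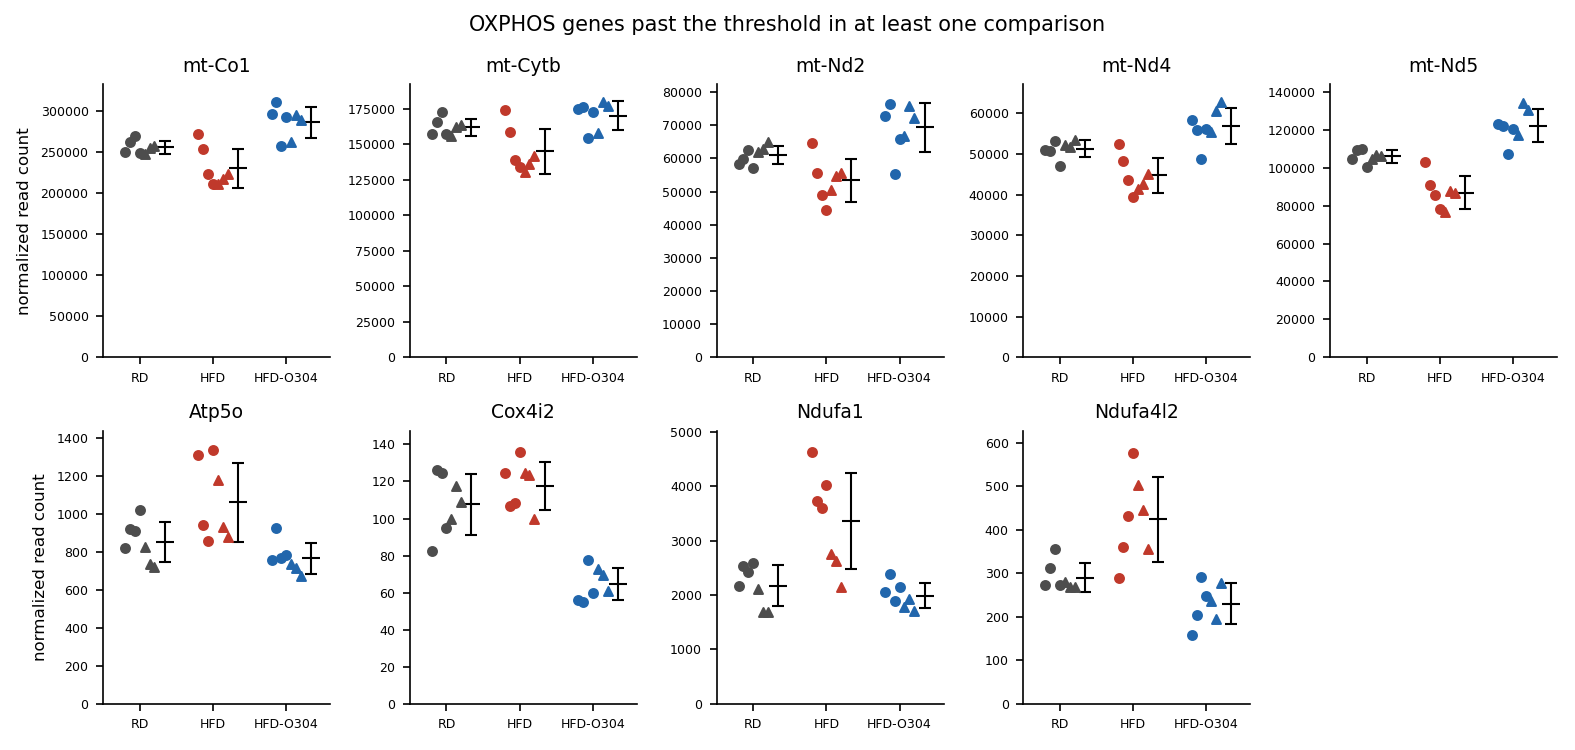
Normalised read counts of 9 of the 10 OXPHOS genes that passed the test in at least 1 comparison, in each sample of the 3 groups (circles for replicates 1 to 4, triangles for replicates 5 to 7, bars for mean ± SD). In the HFD-O304 samples mt-Nd5 lies above all HFD samples, and Cox4i2 lies below them.

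Promoters of OXPHOS genes are known to hold sites of a few shared factors, and the letters of 4 such motifs were searched on both strands of 300 bases per gene (250 before and 50 after the start, RefSeq, GRCm38.p6). Of the 88 nuclear genes 70 had a promoter in the table used. The NRF1 motif was found in 19 of them (27.1%) against 5.19% of 27025 genes, the GABPA motif CCGGAAG in 18 (25.7%) against 9.93%, the YY1 motif AANATGGCG in 11 (15.7%) against 2.76%, and the ERR motif AAGGTCA in 8 (11.4%) against 5.38%. In 28 promoters none of the 4 was found, and 12 held at least 2. The promoters of the nuclear genes that passed are shown where the table held them, with a match to the NRF1 motif in capitals. That of Atp5o is at chr16:91931581-91931880 (minus strand) and that of Ndufa1, with no match to the 4 motifs, at chrX:37191189-37191488 (minus strand).
Atp5o: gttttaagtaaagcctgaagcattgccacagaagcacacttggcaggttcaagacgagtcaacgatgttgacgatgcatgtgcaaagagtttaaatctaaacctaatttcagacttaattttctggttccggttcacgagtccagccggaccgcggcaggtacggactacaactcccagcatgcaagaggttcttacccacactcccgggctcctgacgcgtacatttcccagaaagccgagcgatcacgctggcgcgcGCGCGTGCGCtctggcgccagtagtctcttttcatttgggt
Ndufa1: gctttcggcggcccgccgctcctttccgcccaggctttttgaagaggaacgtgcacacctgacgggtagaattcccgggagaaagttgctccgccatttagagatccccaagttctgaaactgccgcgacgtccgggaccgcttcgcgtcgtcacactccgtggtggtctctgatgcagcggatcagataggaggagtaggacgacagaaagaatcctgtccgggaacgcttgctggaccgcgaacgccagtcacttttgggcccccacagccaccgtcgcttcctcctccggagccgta
The matches are descriptions of letters and not of bound factors. The starts are those of RefSeq, and the Ndufa1 window lies wholly outside the annotated span of the gene given above. The bases around the start of that span were thus not searched. Cox4i2 and Ndufa4l2 also passed, and no promoter is shown for them.

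Genes that act on the OXPHOS system were examined in 7 lists. Their counts stand beside these shares of all genes, in HFD vs RD, HFD-O304 vs RD and HFD-O304 vs HFD. With edgeR they were 3.54, 1.31 and 11.9% at an adjusted p under 0.01, and 21, 14.4 and 29.3% at an unadjusted p under 0.05. With DESeq2 they were 6.46, 2.67 and 14.9% at an adjusted p under 0.01. Of the 16 nuclear regulators, Esrrb rose and Ppargc1a and Gabpb2 (-0.22, adjusted p = 0.00857, named after its values were seen) fell in HFD against RD islets. Ppargc1a encodes PGC-1alpha, a coactivator of mitochondrial gene programmes. Its counts were 152, 181 and 195 in RD, 45.2, 86.7 and 183 in HFD, and 158, 193 and 231 in HFD-O304 islets. The HFD samples were low except for replicate 7, which lay within both other groups. Ppargc1a fell by 0.86 on the log2 scale in HFD against RD (SE 0.183, adjusted p = 0.00331) and was 0.98 higher in HFD-O304 than in HFD islets (SE 0.182, adjusted p = 0.000243). Within replicates 5 to 7 neither passed (-0.48, adjusted p = 0.151, and 0.47, adjusted p = 0.127), and the fall was lost without HFD replicate 4 (-0.79, adjusted p = 0.0107) and in the fit of these 2 groups alone (adjusted p = 0.014).

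Esrrb, an orphan nuclear receptor, had few reads, at 1.91 to 14.8 normalised counts in RD, 0 to 7.86 in HFD-O304 and 15.6 to 31.2 in HFD islets. HFD samples lay above all others, which 0.665% of all genes did against RD and 3.61% against HFD-O304. Of genes with at least 210 pairs 1.02% and 5.61% did. The log2 fold change of Esrrb was 1.52 in HFD against RD (SE 0.352, adjusted p = 0.00674), which was lost without any 1 of RD replicates 1, 2, 4 and 6 or HFD replicates 1, 3, 4, 5 and 6 (1.36 to 1.53, adjusted p of 0.0101 to 0.0176) and within each library set (1.92, adjusted p = 0.0351, and 1.12, adjusted p = 0.13), and -2.81 in HFD-O304 against HFD (SE 0.400, adjusted p = 8.68e-06). Nfe2l2, which controls antioxidant genes, was higher in HFD-O304 than in HFD islets (0.36, SE 0.056, adjusted p = 2.46e-05) and than in RD islets (0.25, SE 0.056, adjusted p = 0.00871). The call against RD was lost without any 1 of 14 libraries (0.23 to 0.27, adjusted p up to 0.025, without HFD-O304 replicate 4) and within each library set (adjusted p = 0.0891 and 0.207), and that against HFD within replicates 5 to 7 (0.30, adjusted p = 0.012).

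Of 32 genes of mitochondrial DNA replication, transcription and RNA processing, 1 fell in HFD against RD, none passed in HFD-O304 against RD with edgeR or DESeq2 (0 at an unadjusted p under 0.05), and 1 was higher and 1 lower in HFD-O304 than in HFD islets. Lrpprc, which stabilises mitochondrial mRNAs, had counts of 2713, 2892 and 3281 in RD, 1977, 2257 and 2762 in HFD, and 2770, 3208 and 3421 in HFD-O304 islets. All HFD-O304 samples lay above all HFD samples, as for 2.56% of all genes and 3.94% of those with at least 210 pairs. Lrpprc fell by 0.33 on the log2 scale in HFD against RD (SE 0.065, adjusted p = 0.00187) and was 0.44 higher in HFD-O304 than in HFD (SE 0.065, adjusted p = 1.29e-05). The fall did not pass within replicates 5 to 7 (-0.19, adjusted p = 0.114). The nuclease Rexo2, named after its values were seen, was the gene that was lower (-0.67, adjusted p = 0.00013). Tfam, which packages mitochondrial DNA, and the mitochondrial RNA polymerase Polrmt had log2 values of -0.04 to 0.11 and 0.05 to 0.22 and did not pass.

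Of 8 genes of supercomplexes and inner membrane shape, Higd1a passed, and no other. It encodes a hypoxia-inducible inner membrane protein that associates with complex IV. Its counts were 318, 348 and 352 in RD, 102.4, 157 and 258 in HFD, and 305, 388 and 400 in HFD-O304 islets. All HFD samples lay below all samples of both other groups, which 0.687% of all genes did against RD and 2.56% against HFD-O304. Of genes with at least 210 pairs 1.07% and 3.94% did. Higd1a fell by 1.01 on the log2 scale in HFD against RD (SE 0.129, adjusted p = 1.97e-05) and was 1.11 higher in HFD-O304 than in HFD islets (SE 0.129, adjusted p = 5.17e-07).

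Of 7 coupling and carrier genes, 1 rose in HFD against RD, none passed in HFD-O304 against RD with edgeR or DESeq2 (0 at an unadjusted p under 0.05), and 2 were lower in HFD-O304 than in HFD islets. Ucp2, which encodes an inner membrane carrier of the uncoupling protein family, had counts of 8828, 9226 and 9638 in RD, 10204, 11638 and 12752 in HFD, and 8002, 9847 and 11132 in HFD-O304 islets. HFD samples lay above all RD samples, which 0.665% of all genes and 1.02% of those with at least 210 pairs did, and overlapped HFD-O304. Ucp2 rose by 0.32 on the log2 scale in HFD (SE 0.062, adjusted p = 0.00158), which did not pass within replicates 1 to 4 (adjusted p = 0.0877). It was lower in HFD-O304 than in HFD islets (-0.23, SE 0.062, adjusted p = 0.00897), a call that was lost without any 1 of 18 libraries (-0.24 to -0.18, adjusted p up to 0.021, without HFD replicate 4) and within each library set (-0.27, adjusted p = 0.0745, and -0.19, adjusted p = 0.0438). The other carrier that was lower was the phosphate carrier Slc25a3, named after its values were seen (-0.24, adjusted p = 0.00958).

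Of 14 electron carriers and genes of their synthesis, Coq9, of ubiquinone synthesis, rose in HFD against RD (0.24, adjusted p = 0.00495) and was lower in HFD-O304 than in HFD islets (-0.27, adjusted p = 0.000665), and was named after its values were seen. Cytochrome c, Cycs, had log2 values of 0.41 (SE 0.165, adjusted p = 0.131) and -0.59 (SE 0.166, adjusted p = 0.0121) and did not pass with edgeR. Coq10b had 0.32 in HFD-O304 against RD (SE 0.108, adjusted p = 0.117). Of 45 further assembly factors and chaperones none passed in HFD against RD with edgeR (8 at an unadjusted p under 0.05, and Cox19 with DESeq2), and Coa7 (0.43, adjusted p = 0.000956) and Sdhaf1 (0.30, adjusted p = 0.00288), named after their values were seen, were higher in HFD-O304 than in HFD islets.

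The 77 mitochondrial ribosomal protein genes, which translate the mitochondrial mRNAs, had a median log2 value of 0.10 in HFD against RD, with 63 positive, and -0.06 in HFD-O304 against HFD. In HFD against RD none of the 77 passed with edgeR. An unadjusted p under 0.05 was reached by 17, beside 21% of all genes and 29% of those with at least 210 pairs. DESeq2 called 3, beside 6.46% and 10.2%. In HFD-O304 against HFD islets Mrpl15 was lower (-0.43, adjusted p = 0.000917) and Mrps9 higher (0.22, adjusted p = 0.00972), both named after their values were seen.

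The median log2 values of the lists were small beside those of the genes named. In HFD against RD they were -0.04 for the regulators, -0.01 for mitochondrial DNA and RNA, 0.05 for supercomplexes, 0.15 for coupling and carriers, 0.04 for electron carriers and 0.06 for assembly factors. In HFD-O304 against HFD they were, in the same order, 0.06, 0.04, -0.03, -0.13, -0.01 and -0.01. In HFD-O304 against RD, Nfe2l2 was the single gene of all 7 lists that passed with edgeR or DESeq2. An unadjusted edgeR p under 0.05 was reached by 3 regulators (Nfe2l2 included), 5 assembly factors, 7 ribosomal protein genes and 2 electron carrier genes.

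**Figure D5:**
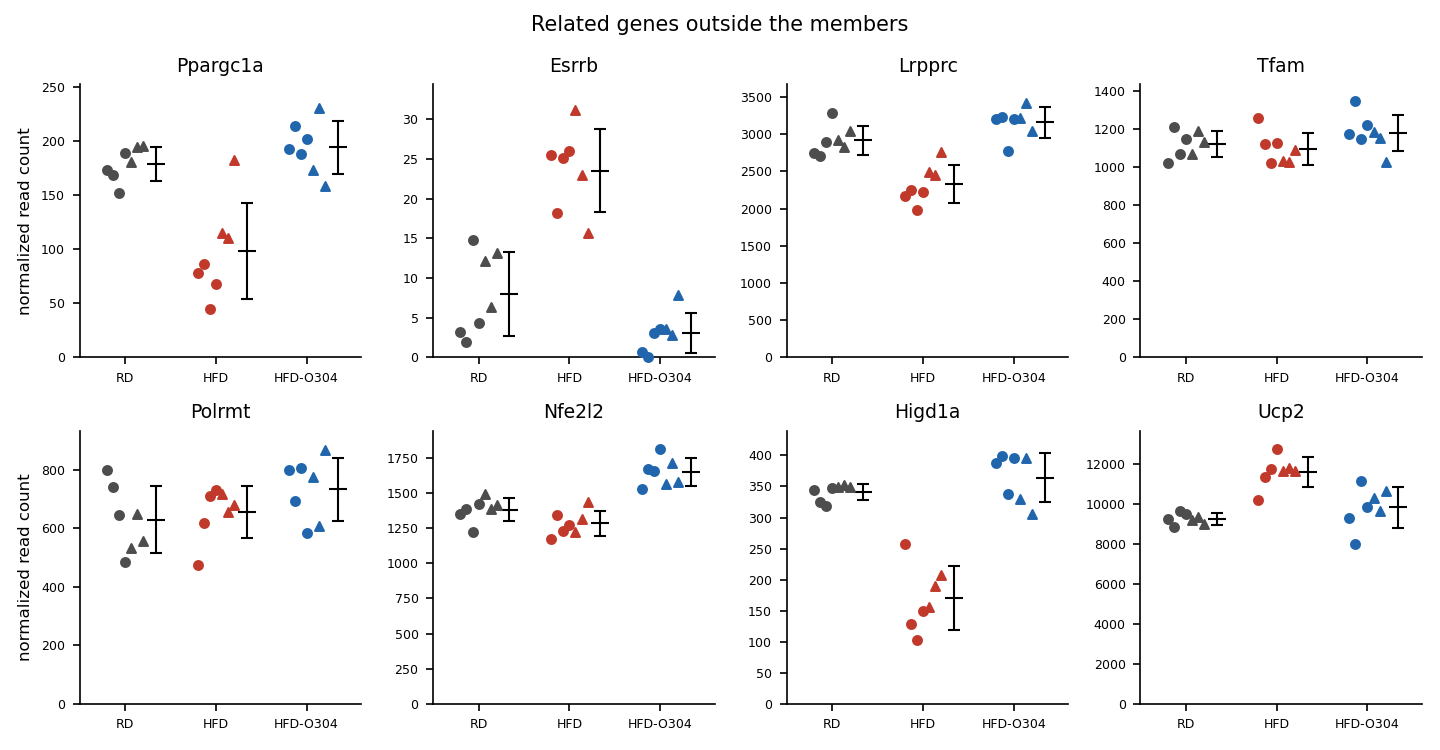
Normalised read counts of 8 genes that act on the OXPHOS system, in each sample of the 3 groups (circles for replicates 1 to 4, triangles for replicates 5 to 7, bars for mean ± SD). Higd1a lies between 102.4 and 258 in HFD samples and above 305 in the others, and Tfam and Polrmt overlap across groups.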

How the data were processed

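RNA of 21 islet samples was sequenced as read pairs. Per the labels and the study's methods, the authors aligned the pairs to GRCm38 with STAR and deposited raw read counts per gene for each sample, without normalization and without pairs that fit several places or genes. Of the unstranded and stranded columns that STAR writes, which served the authors is not given in the sources used here. The strand column with the larger total, 28.8 to 36.3 times the other, was taken. All columns belonged to a sample of the series.

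Genes with a sum of at least 10 counts were kept (27229). The 3 groups were fitted together with edgeR 4.0.16 (TMM, quasi-likelihood test, no covariates) in R 4.3.3 and called at an adjusted p under 0.01. SEs were derived from the F statistic. Normalised read counts are counts divided by the size factors of DESeq2 1.42.0, which was also run as an alternative test. Tables were made with Python 3.11.15. The test was checked on simulated counts. Alternatives covered the normalization, filter, strand, samples in the fit, replicate number, library set, depth, threshold and each library left out. Library sizes without insulin genes were added after the data were seen.

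The OXPHOS genes, related lists and markers were chosen with earlier results of these data known. Named genes were all mitochondrial members, the 5 nuclear members of smallest p per comparison, complex II, the gene of highest level per complex, isoform families, the 3 related genes of smallest p per comparison, and Ppargc1a, Tfam, Polrmt, Cycs and Ucp2. Some genes that this rule or the marker lists hold are counted but not reported here by name. Each sample has its own replicate number in its label, and the study's methods describe pools of 5 mice with n = 7 per condition. Neither source states that no animal gave islets to several samples. The p-values measure the spread between samples and treat the samples as independent, which was not tested. Precision is limited by 7 samples per group and, for low genes, by depth.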

Additional observations from a re-analysis of the deposited data

Results flagged for a closer look

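A sample was set apart where its gap to the nearest other sample of its group exceeded Dixon's 95% critical value for 7 samples. Of the 147 groups examined for the named genes and shares, 3 (2.04%) held such a sample, where chance gives about 1 in 20. RD replicate 4 had the lowest mt-Nd4 count of its group, 46945, against 50695 in the next sample and 53382 in the highest. The same library had the highest Sdha count in RD, 9983, against 8812 in the next and 8320 in the lowest. HFD-O304 replicate 2, the shallowest library, had an mt-Nd6 count of 909, against 403 in the next sample and 184 in the lowest.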

How the results depend on the processing

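None of the called differences changed sign under the 36 alternatives run for each. Of 15 calls of single OXPHOS genes, 5 held under all of them, among them those of mt-Nd5, Ndufa1, Ndufa4l2 and Cox4i2 in HFD-O304 against HFD. With each library left out in turn, the OXPHOS genes called ranged from 2 to 5 in HFD vs RD (5 without HFD replicate 1), from 1 to 3 in HFD-O304 vs RD and from 10 to 12 in HFD-O304 vs HFD. In HFD-O304 vs HFD the number of OXPHOS genes called was 10 (5 higher), and became 17 (12 higher, 5 lower) with library totals alone, 5 within replicates 1 to 4 and 23 at an adjusted p under 0.05, beside 22.5, 11.4 and 28% of genes with at least 210 pairs called in the same settings. The 12 that were higher with library totals alone outnumber the 10 mitochondrial genes, so nuclear genes were among them. In HFD vs RD it was 3, and became 1 in the fit of the 2 groups alone, 1 within replicates 1 to 4 and 8 at an adjusted p under 0.05, beside 3.61, 3.24 and 12%. In HFD-O304 vs RD it was 2, and became 1 within replicates 1 to 4, beside 0.494%, and 0 within replicates 5 to 7, beside 1.32% (edgeR, 24 at an unadjusted p under 0.05, beside 20.9%). DESeq2 called 1758, 727 and 4045 of all genes in HFD vs RD, HFD-O304 vs RD and HFD-O304 vs HFD, where edgeR called 963, 356 and 3230. With all read pairs in the denominator the mitochondrial share was 1.53% in RD, 1.74% in HFD-O304 and 1.32% in HFD islets, a smaller value by construction. For the other changes the cause was not tested.

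The groups share replicate numbers, but same-numbered samples deviated together only in part. The correlation of their deviations was -0.54 to 0.64 in HFD vs RD, -0.14 to 0.69 in HFD-O304 vs RD and -0.36 to 0.51 in HFD-O304 vs HFD, and not every sample matched its own number best. With the replicate number as a block, 4, 2 and 16 OXPHOS genes were called in these comparisons, beside 9.06, 3.14 and 21.4% of genes with at least 210 pairs. Depth limits mt-Nd6, Esrrb and the 6 mitochondrial genes inside the stretch bounded by copies.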

Other observations

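Cox7a1, the muscle isoform of a complex IV subunit, was under the read minimum, with 175 pairs in all. Its normalised counts were 2.20, 4.78 and 19.2 (lowest, median and highest) in RD, 1.74, 3.003 and 9.44 in HFD, and 10.6, 10.8 and 15.2 in HFD-O304 islets. All HFD-O304 samples lay above all HFD samples, which 2.56% of all genes did. The log2 fold change of 1.39 (SE 0.405) did not pass (edgeR adjusted p = 0.0149).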
